A study of Drosophila melanogaster with 8 samples.

Results

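The Niemann-Pick genes of Drosophila melanogaster were taken as the 10 genes named Npc1a, Npc1b and Npc2a to Npc2h in the deposited annotation, out of 17655 genes. All 10 were found under these symbols, and all 10 passed the filter on low values (at least 1 FPKM in 1 or more libraries of each sex), as did 9848 genes in all. The study asked how a high-fat diet, alone or with a plant polyphenol, acts on the transcripts of flies as a model of obesity caused by food. It measured RNA from adult Canton S flies, a common wild-type strain, 15 days old, as bodies from which wings and legs had been removed. Flies of each sex had spent 7 days on 1 of 4 foods and then 2 h on standard food to empty the gut. Food was either normal (ND), high in fat (HFD), HFD with quercetin glucoside (HFD+QG, a flavonol joined to glucose) and HFD with epigallocatechin gallate (HFD+EGCG, the main catechin of green tea). Each diet and sex had 1 library, 8 in all. How many flies made a library, the doses of the compounds and the recipe of the high-fat food are not stated in the sources used here.

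Insects cannot build sterols and depend on those in food, which they use in membranes and as the starting material of ecdysteroids, the steroid hormones that control moulting and, in adult females, egg development. NPC1 proteins are large membrane proteins with a sterol-sensing domain, and NPC2 proteins are small secreted or lysosomal proteins with an MD-2-related lipid-recognition domain. In mammals NPC2 binds cholesterol inside the lysosome and hands it to NPC1, which passes it out, and loss of either causes Niemann-Pick disease type C. Flies carry a pair of NPC1 genes and an enlarged set of NPC2 genes. Npc1a acts in many tissues, and Npc1b is needed for sterol absorption in the midgut. Npc2a and Npc2b act in sterol balance and ecdysteroid synthesis. In the deposited annotation Npc2a, Npc2e and Npc2h are also listed as binding bacterial wall components (lipopolysaccharide, peptidoglycan and lipoteichoic acid), and Npc2g and Npc2h are listed under hemolymph coagulation.

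The 10 genes lie on chromosome arms 2L, 3R and X, at positions given as deposited, which equal those of BDGP6.54 for each of them. Npc1a (FBgn0024320) spans chromosome 2L, 10213812 to 10221216, and Npc2a (FBgn0031381) lies on the same arm at 1988290 to 1988940. Npc1b (FBgn0261675) lies on chromosome X at 20934869 to 20939503. The other 7 are on 3R. Npc2e (FBgn0051410, 10053332 to 10054348), Npc2d (FBgn0037782, 10055356 to 10056083) and Npc2c (FBgn0037783, 10060252 to 10061136) are neighbours, with 1007 bp between the first pair and 4168 bp between the second pair. Npc2g (FBgn0039800, 30744605 to 30745263) and Npc2h (FBgn0039801, 30745479 to 30746290) are 215 bp apart, and no other protein-coding gene lies within either cluster. Npc2b (FBgn0038198, 14089517 to 14092425) and Npc2f (FBgn0039154, 24137895 to 24140936) stand alone. The NPC2 genes are related in sequence, so where the authors' software had to divide shared reads among them their levels are uncertain.

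Levels are given as FPKM (fragments relative to the length of a transcript and the size of the library), summed over the transcripts of a gene and already rounded to whole numbers per transcript by the authors. FPKM are scaled to length, so levels of different genes can be set side by side. The depth of the libraries is unknown. Summed FPKM per library lay between 885956 and 1000513, and males had 12758 to 12892 genes above 0 against 9473 to 9844 in females. The sex labels matched the tissue markers: 10 accessory gland genes summed to 48145 to 62200 FPKM in males and to 0 or 1 in females, and 15 genes of yolk and eggshell summed to 11 to 14 FPKM in males and 6662 to 42037 in females. The ND library of females stood apart from the other 3 of that sex in these egg genes, at 42037 FPKM against 6662, 13537 and 8438 on HFD, HFD+QG and HFD+EGCG.

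Npc2g was the most abundant family gene in both sexes. In males its level was 381, 410, 448 and 422 FPKM, in the order ND, HFD, HFD+QG, HFD+EGCG that is kept throughout, a mean of 415 ± 27.8 (SD, n = 4 diets). Next came Npc2h, Npc2a and Npc2b with means of 161 ± 7.76, 156 ± 13.6 and 148 ± 9.74, whose ranges overlapped, so that their order is not settled. Npc2f (57.0 ± 2.71) and Npc2d (41.8 ± 5.44) followed with ranges that did not overlap their neighbours above. The ranges of Npc2d, Npc2e (32.0 ± 9.42) and Npc1a (30.8 ± 0.957) overlapped from each gene to the next. Npc1b and Npc2c were the lowest, both at a mean of 3.75 FPKM with an SD of 1.5 and 2.22. For these small whole numbers a step of 1 FPKM is a large relative change.

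Females had another order. Npc2g was at 141, 295, 277 and 305 FPKM (254 ± 76.5), Npc2e at 167, 318, 194 and 240 (230 ± 66.1) and Npc2a at 238, 167, 161 and 169 (184 ± 36.3), with overlapping ranges. On ND, Npc2a led in females and Npc2g came only after Npc2e. Npc2f (100 ± 29), Npc2b (61.8 ± 11.2), Npc2d (52.2 ± 6.13) and Npc2h (44.5 ± 13.5) formed the middle group, and each of their ranges overlapped the next. Npc1a (17.8 ± 1.89) and Npc1b (16.0 ± 4.83) had overlapping ranges, and Npc2c was lowest at 3.25 ± 1.5. The SD over the diets was 3.11% to 13.0% of the mean for 7 of the genes in males and reached 29.4%, 40.0% and 59.1% for Npc2e, Npc1b and Npc2c. In females it was lowest for Npc1a and Npc2d, at 10.7% and 11.7%.

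**Figure D1:**
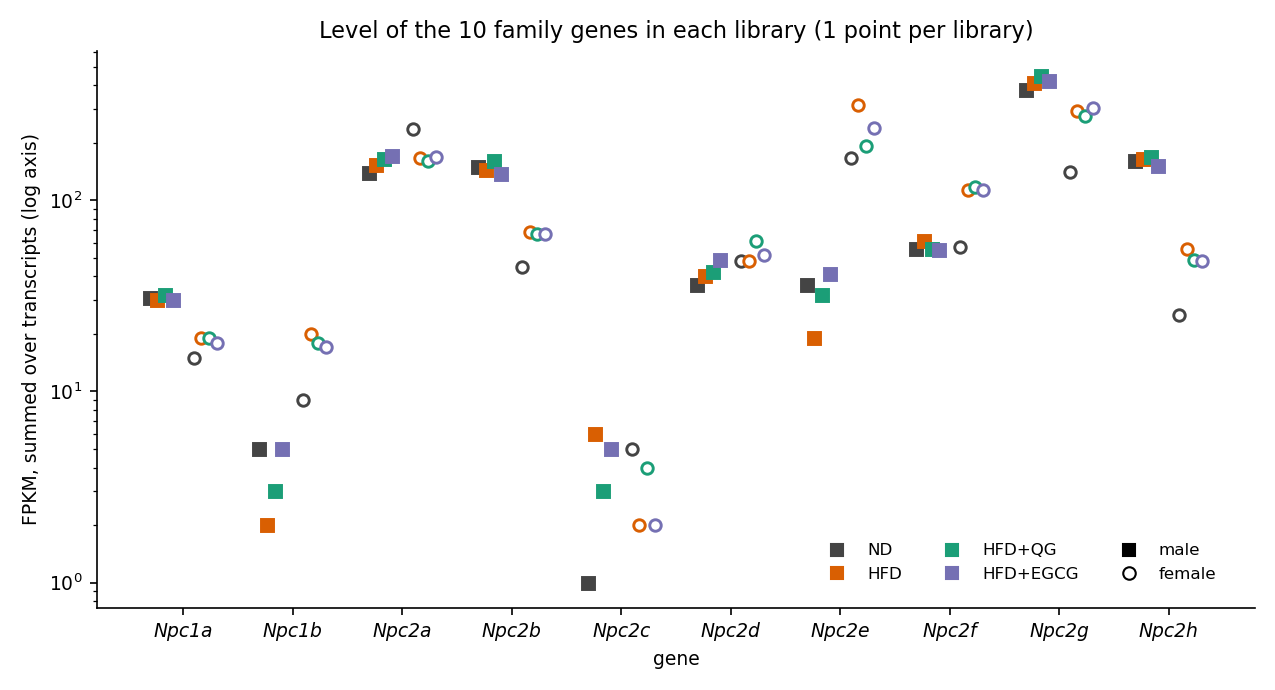
Level of each of the 10 family genes in FPKM on a log axis, 1 point per library, with males as filled squares and females as open circles, coloured by diet. Npc2g is highest in males at 381 to 448 FPKM, and for Npc2f, Npc2g and Npc2h the female ND point lies below the other 3 female points.

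The 8 NPC2 genes together summed to 959, 998, 1074 and 1030 FPKM in the male libraries and 726, 1068, 930 and 997 in the female ones. The NPC1 pair summed to 36, 32, 35 and 35 FPKM in the male libraries and 24, 39, 37 and 35 in the female ones. NPC2 transcripts thus outnumbered NPC1 transcripts by 25.1 to 31.2 times in every library on a per-length scale. The make-up of the NPC2 sum differed between the sexes. Npc2g made up 39.7% to 41.7% of it in males, against 19.4% on ND and 27.6% to 30.6% on the high-fat diets in females. Npc2e made up 1.90% to 3.98% in males and 20.9% to 29.8% in females. Npc2a took 32.8% of the sum in ND females and 15.6% to 17.3% in the other 3 female libraries, close to the 14.5% to 16.5% seen in males.

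**Figure D2:**
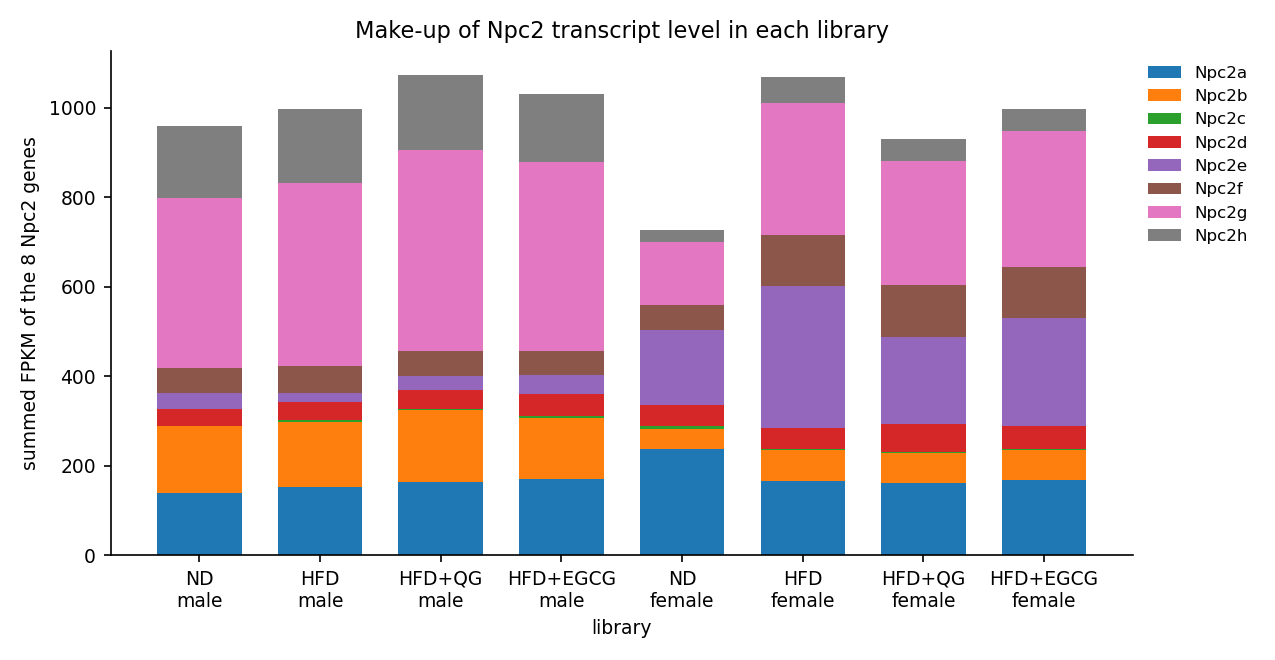
Summed FPKM of the 8 NPC2 genes in each library as stacked bars, with each gene in its own colour. The 4 male bars have a like make-up led by Npc2g, and the ND female bar is the shortest, at 726 FPKM, with a smaller Npc2g segment and a larger Npc2a segment than the other female bars.

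Transcript forms were alike across libraries for most members. 6 of the 10 genes have 1 annotated transcript. Npc2g-RB carried 84.1% to 87.2% of Npc2g, and Npc2h-RC carried 87.0% to 92.9% of Npc2h. Npc2b-RA carried 73.7% to 84.0% of Npc2b in males and 80.0% to 97.0% in females. Npc1a has 7 annotated transcripts, of which 4 were listed at 0 in all 8 libraries. Npc1a-RE led or shared the lead in each library with 50.0% to 71.0% in males and 42.1% to 80.0% in females, and Npc1a-RA and Npc1a-RD shared the rest in proportions that shifted from library to library. In the HFD+QG females, for example, Npc1a-RA and Npc1a-RE were both at 8 FPKM, whereas Npc1a-RA was at 0 and Npc1a-RE at 14 in the HFD females.

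Sex separated most members. The sexes were compared with limma in an additive model of sex and diet on log2(FPKM + 1), with Benjamini-Hochberg adjustment over all 9848 genes. Of the 10 members, 4 were higher and 4 lower in females than in males at an adjusted p under 0.05. Among all genes tested, 39.6% were higher and 27.3% lower, so a family in which most members differ by sex is close to the background. The 4 libraries of a sex did not overlap those of the other for 6 members (Npc1a, Npc1b, Npc2b, Npc2e, Npc2g and Npc2h), against 63.9% of all genes. Differences are on the log2(FPKM + 1) scale, which understates the change of genes at low levels, and p-values measure only the spread between these libraries, which may be technical.

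Higher in females was first of all Npc2e, annotated as a sterol-binding protein of peptidoglycan recognition signalling. Male libraries held 36, 19, 32 and 41 FPKM, female libraries 167, 318, 194 and 240, and every female library lay above every male one. The difference was 2.82 (SE 0.31), 7.04-fold, with an adjusted p of 0.00155 by limma. Npc1b, the intestinal sterol absorption protein, had male levels of 5, 2, 3 and 5 FPKM and female levels of 9, 20, 18 and 17. Its groups did not overlap either, and the difference was 1.84 (SE 0.35, adjusted p = 0.00705 by limma). Beside it, 11 midgut genes summed to 477 to 683 FPKM in males and 815 to 1144 in females, and their part in the Npc1b difference was not tested.

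Smaller differences towards females were found for Npc2f and Npc2d, the members with the least settled calls. Npc2f had male levels of 56, 61, 56 and 55 FPKM and female levels of 57, 114, 117 and 114, so that on ND the sexes were level. The mean difference over diets was 0.75 (SE 0.20, adjusted p = 0.0203 by limma). Npc2d was at 36, 40, 42 and 49 in males and 48, 48, 61 and 52 in females, with overlapping groups and a difference of 0.32 (SE 0.10, adjusted p = 0.0394 by limma). With libraries centred on their median gene, Npc2f fell to 0.48 and Npc2d to 0.05 and neither passed. Without a trended prior Npc2d did not pass either. Both calls were also lost without any 1 of 6 of the 8 libraries (for Npc2f all but the ND pair, for Npc2d all but the HFD+EGCG pair).

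Lower in females was Npc2h, listed under hemolymph coagulation, with 160, 165, 169 and 151 FPKM in the male libraries and 25, 56, 49 and 48 in the female ones. The difference was -1.89 (SE 0.20), 3.71-fold, with an adjusted p of 0.00142 by limma, and male levels were 2.95 to 6.40 times female levels on each diet. Npc2b, of sterol balance and ecdysteroid synthesis, was at 150, 144, 160 and 137 in males and 45, 68, 67 and 67 in females, a difference of -1.26 (SE 0.14, adjusted p = 0.00149). Npc1a, the broadly acting sterol transporter, was at 31, 30, 32 and 30 in males and 15, 19, 19 and 18 in females, a difference of -0.77 (SE 0.10, adjusted p = 0.00245). Npc2g differed by -0.76 (SE 0.18, adjusted p = 0.0146), and the Npc2g call was lost without the male or the female HFD+QG library, at an adjusted p of up to 0.0635. None of these 4 had overlapping groups. Muscle genes differed between the sexes in the same direction: 10 of them summed to 2633 to 3485 FPKM in males and 967 to 2261 in females, 7 of the 10 were called lower in females, and their median difference was -0.77. Their part in the members' values was not tested. With libraries rescaled to these 10 genes, an alternative chosen after seeing the data, Npc1a (-0.02) and Npc2b (-0.49) no longer passed, Npc2g was at 0.01, and Npc2a passed as higher in females (0.99), which left 5 members higher and 1 lower against 57.1% and 8.91% of all genes. The Npc1a call was also lost with the most abundant transcript of each gene. Npc2a (0.22, adjusted p = 0.266) and Npc2c (-0.08, adjusted p = 0.901) did not pass, and in both the groups overlapped.

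Among the neighbouring genes, Npc2e was 7.04-fold higher in females, while Npc2d, 1007 bp away, was 1.25-fold higher and Npc2c differed by -0.08 without passing. These differences were not tested against each other. Npc2g and Npc2h were both lower in females, by 0.76 and 1.89 on the log2 scale, and the difference between these 2 values was not tested.

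Within a sex, members passed only for high-fat feeding in females. There 5600 of 9848 genes passed, so passing as such was common and only the direction set the members apart. The 3 high-fat libraries of a sex (HFD, HFD+QG and HFD+EGCG) were set against the ND library of that sex in a limma fit of all 8 libraries. In that fit the 3 high-fat libraries stand as replicates although 2 of them also held a compound, and each single ND library is taken to vary as they do. In females 5 of 10 members rose and 1 fell, against a background of 22.6% of all genes that rose and 34.2% that fell, whereas 0 rose and 5 fell when libraries were rescaled to the summed muscle genes, a scale on which 5.65% of all genes rose and 75.7% fell. The median member was 0.56 higher on the high-fat diets and the median of all genes tested was 0.14 lower, on the log2 scale. ND lay below all 3 high-fat libraries for 7 members, against 32.0% of all genes, and above all 3 for 2 members, against 49.3%.

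Npc2f, Npc2g and Npc2h rose the most among the members that passed. Npc2g was at 141 FPKM on ND and 292 ± 14.2 (SD, n = 3) on the high-fat diets, a difference of 1.05 (SE 0.07), 2.06-fold, with an adjusted p of 0.000837 by limma. Npc2f stood at 57 FPKM on ND and at 114, 117 and 114 on the others, a difference of 1.00 (SE 0.06, adjusted p = 0.000658). Npc2h stood at 25 FPKM on ND and 51.0 ± 4.36 (n = 3), a difference of 1.00 (SE 0.11, adjusted p = 0.0026). In each of them the ND library was the lowest of the 4 and the high-fat libraries lay close together, at 277 to 305, 114 to 117 and 48 to 56 FPKM.

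Npc2b and Npc1a rose less. Npc2b went from 45 FPKM on ND to 67.3 ± 0.577 (n = 3), a difference of 0.57 (SE 0.09, adjusted p = 0.00612 by limma). Npc1a went from 15 to 18.7 ± 0.577 (n = 3), a difference of 0.30 (SE 0.06, adjusted p = 0.0113). The Npc1a value rests on the sum over transcripts: with the most abundant transcript of each gene in its place, the Npc1a difference was -0.04 and did not pass.

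Npc2a, of sterol balance and ecdysteroid synthesis, moved the other way. It was at 238 FPKM on ND and at 166 ± 4.16 (n = 3) on the high-fat diets, a difference of -0.52 (SE 0.07, adjusted p = 0.00394 by limma), and the ND library lay above all 3 others. The remaining 4 members did not pass in females. Npc1b was at 9 FPKM on ND and 17 to 20 on the high-fat diets, a difference of 0.95 (SE 0.38, adjusted p = 0.086), and it passed when libraries were centred on their median gene, with a pseudocount of 5, and without the HFD or the HFD+EGCG library of males, at adjusted p-values down to 0.0262. Npc2e differed by 0.55 (SE 0.48, adjusted p = 0.366), with 167 on ND and 194 to 318 on the high-fat diets. Npc2d was at 48 on ND and 48 to 61 on the others (0.15, adjusted p = 0.485), and Npc2c at 5 against 2 to 4 (-0.75, adjusted p = 0.199).

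**Figure D3:**
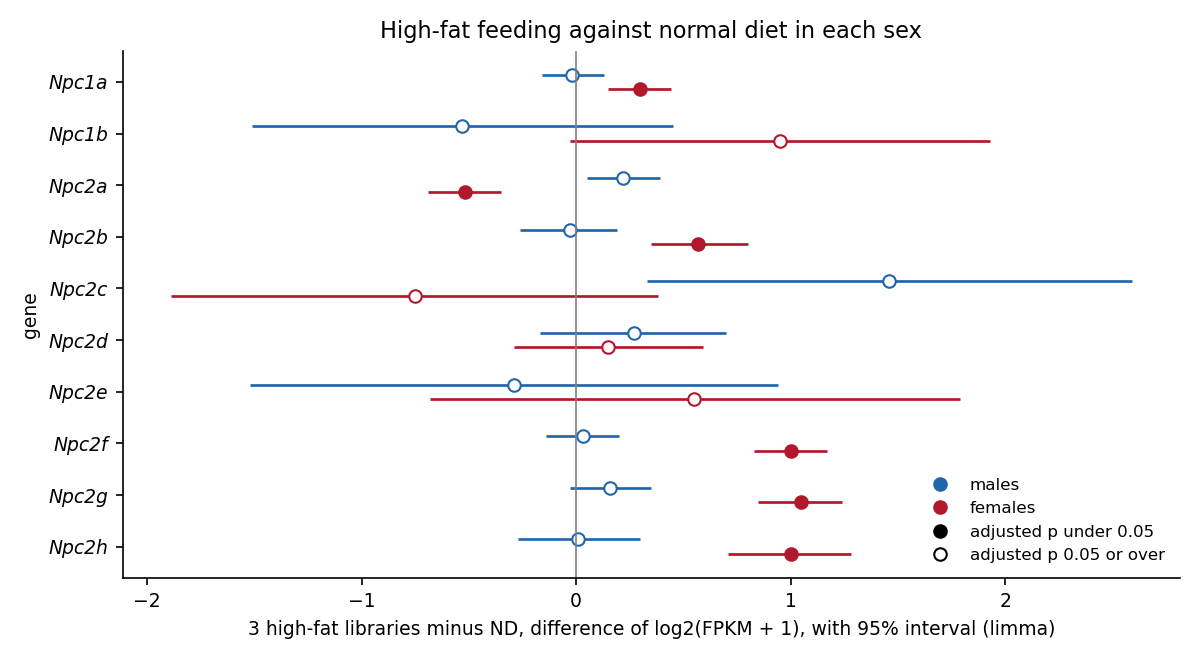
Difference between the 3 high-fat libraries and the ND library of each sex for the 10 family genes, in log2(FPKM + 1), with 95% intervals from limma, filled where the adjusted p over all genes is under 0.05. Of the female values, 5 are filled above 0 and Npc2a below 0, while no male value is filled.

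Tissue markers moved with these changes in females. The 10 muscle genes summed to 967 FPKM on ND and 2010 to 2261 on the high-fat diets, and all 10 were higher, with a median difference of 1.15. The 15 egg genes were all lower, with a median of -3.11, and 8 germline genes summed to 1078 FPKM on ND and 445 to 584 on the high-fat diets (1 of 8 higher, median -1.04). Of 11 midgut genes 9 were higher, with a median of 0.60. The 6 fat body genes summed to 735 FPKM on ND and 237 to 281 on the high-fat diets (1 of 6 higher). Their median difference was -0.13 over all 6, of which 2 were at 0 FPKM on ND, with single genes from -5.9 to 0.1. Over the 4 fat body genes that passed the filter the median was -2.27. Of these 4, 2 were called lower, against 34.2% of all genes. The 3 Malpighian tubule genes found summed to 139 FPKM on ND and then 211 to 242 (2 of 3 higher, median 0.71). In whole bodies fewer cells of a type and less RNA per cell cannot be told apart, and a large share of egg transcripts in a library lowers the FPKM of all other genes. The 15 egg genes held 42037 of 888950 summed FPKM on ND and 6662 of 896311 on HFD in females. What part these shifts play in the family's differences was not tested.

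Set against the summed muscle genes, which themselves rose by a median of 1.15 in females, the rise of Npc2g, Npc2f and Npc2h was not seen. Per 100 FPKM of muscle genes, Npc2g was at 14.6 on ND and 13.0 to 13.8 on the high-fat diets in females, and at 11.8 to 14.9 in males. Npc2f was at 5.89 on ND and 5.04 to 5.82, and Npc2h at 2.59 on ND and 2.14 to 2.48. Npc2a was at 24.6 on ND and 7.39 to 8.01. Set against the summed midgut genes, the rise in females remained. Per 100 FPKM of midgut genes, Npc2g was at 17.3 on ND and 25.8 to 32.1 on the high-fat diets. Npc2f was at 6.99 and then 9.97 to 13.4, Npc2h at 3.07 and then 4.9 to 5.61, and Npc2a at 29.2 and then 14.6 to 18.4. With every library rescaled to the muscle genes, Npc2f, Npc2g and Npc2h differed by -0.15, -0.11 and -0.14 without passing. That scaling moved the median of all genes from -0.14 to -1.26. A rescaling moves the median and the members together, so by construction the distances from it stay almost as deposited, at 1.18 for Npc2g and -0.38 for Npc2a.

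**Figure D4:**
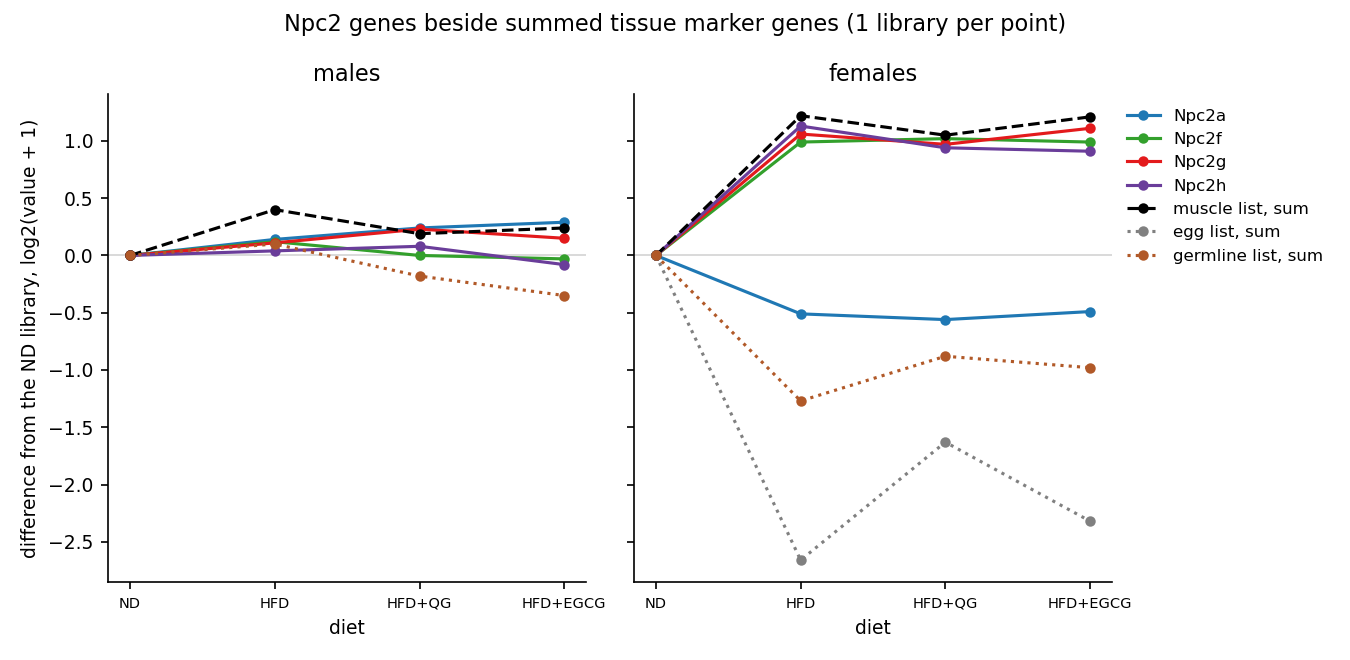
Difference of each library from the ND library of its sex, in log2(value + 1), for 4 NPC2 genes (solid) and for the summed muscle, germline and egg genes (dashed or dotted; the egg genes only in females, since they sum to 11 to 14 FPKM in males). In females Npc2f, Npc2g and Npc2h lie at 0.91 to 1.13 beside the muscle sum at 1.05 to 1.22, while Npc2a lies at -0.49 to -0.56.

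Males gave no called member in the same contrast, with 0 of 10 higher and 0 lower against a background of 5.65% and 2.62%, and the median member differed by 0.02. Npc2f, Npc2h, Npc1a and Npc2b lay within 0.03 of 0, with intervals of -0.14 to 0.20, -0.27 to 0.30, -0.16 to 0.13 and -0.26 to 0.19. Npc2g was at 381 FPKM on ND and 410 to 448 on the high-fat diets, a difference of 0.16 (SE 0.07, adjusted p = 0.228 by limma). Npc2a was at 139 on ND and 153 to 170, a difference of 0.22 (SE 0.07, adjusted p = 0.107). Npc2c was at 1 FPKM on ND and 3 to 6 on the high-fat diets (1.46, adjusted p = 0.104). ND lay below all 3 high-fat libraries for 4 members, against 33.7% of all genes, and above all 3 for 0, against 23.1%. At unadjusted p under 0.05, 2940 of 9848 genes differed in males, Npc2a and Npc2c among them.

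The difference between the sexes was itself tested as the interaction in that fit. It passed for 7 members, 5 of them higher and 2 lower in females relative to males, against 16.8% and 25.9% of all genes. Npc2h (0.98, SE 0.16, adjusted p = 0.00953), Npc2f (0.97, SE 0.09, adjusted p = 0.003), Npc2g (0.88, SE 0.11, adjusted p = 0.00506), Npc2b (0.60, SE 0.12, adjusted p = 0.0183) and Npc1a (0.31, SE 0.08, adjusted p = 0.0329) were higher. Npc2a (-0.74, SE 0.10, adjusted p = 0.00591) and Npc2c (-2.22, SE 0.62, adjusted p = 0.0414) were lower, and Npc2c rests on levels of 1 to 6 FPKM. On the muscle scale 0 members were higher and 3 lower, against 5.80% and 62.7% of all genes, with Npc2f at 0.09, Npc2g at 0.00 and Npc2h at 0.13, and Npc2a at -1.63. The Npc1a and Npc2c calls were also lost without the HFD or HFD+EGCG library of males and without the HFD library of females, the Npc1a call without the HFD+QG library of females, and the Npc2c call without the HFD+EGCG library of females. At a common library sum Npc1a did not pass, with the most abundant transcript neither Npc1a nor Npc2b did, and with a pseudocount of 5 or no filter on low values Npc2c did not.

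Averaged over the sexes, 4 members were higher on the high-fat diets, against 17.8% of all genes. They were Npc2g (0.60, SE 0.05, adjusted p = 0.00255 by limma), Npc2f (0.52, SE 0.05, adjusted p = 0.00268), Npc2h (0.50, SE 0.08, adjusted p = 0.0106) and Npc2b (0.27, SE 0.06, adjusted p = 0.0292). Since the interaction passed for each of them, this mean combines a female rise with a male value near 0. On the muscle scale each of the 4 was lower than 0, at -0.11, -0.20, -0.20 and -0.44, where 76.5% of all genes were called lower. The Npc2b call was lost at a common library sum, with the most abundant transcript, and without the HFD library of males or any 1 of the 3 high-fat libraries of females.

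HFD alone against ND, with 1 library per sex and diet, was tested in the additive fit over both sexes. No gene passed (0% of 9848, with 1336 at an unadjusted p under 0.05 and a lowest adjusted p of 0.29), and so 0 members did. Where females and males respond unequally to the food, this fit puts the inequality into its residual. The interaction of sex and high-fat feeding passed for 4208 genes, with 5 members higher and 2 lower in females relative to males. HFD effects present in only 1 sex could thus be missed here, and the lack of calls does not show that HFD had no effect. The member values ran from -0.19 for Npc2a to 0.59 for Npc2h (SE 0.28, adjusted p = 0.435). Without the ND library of males, where HFD minus ND then rests on females, 3839 genes passed, among them Npc1a, Npc2a, Npc2b, Npc2f, Npc2g and Npc2h. Within a sex there is no replicate check. In females 3 members were at least 2-fold higher on HFD than on ND: Npc1b (9 to 20 FPKM), Npc2g (141 to 295) and Npc2h (25 to 56). Npc2c was 2-fold lower. Of all genes 20.1% were at least 2-fold different either way, 1466 of 9848 higher and 514 lower. In males Npc2c (1 to 6 FPKM) was higher and Npc1b (5 to 2) lower, against 4.6% of all genes (160 higher and 293 lower).

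Adding quercetin glucoside to HFD moved no member past a threshold. The comparison with HFD, in the same additive fit, called 0% of 9848 genes, with 107 at an unadjusted p under 0.05. Differences between the sexes in the response to diet, those of the ND libraries included, count as error in it. Small effects of the compound could thus be missed. Between single libraries 0 members differed 2-fold in either sex, against 2.71% of all genes in males and 4.23% in females. Members differed by -0.81 to 0.72 in males and -0.71 to 0.74 in females on the log2 scale. Npc2e gave the widest values among the abundant members, going from 19 to 32 FPKM with the compound in the male libraries (0.72) and going from 318 to 194 in the female ones (-0.71), so its sign differed between the sexes. Npc2f and Npc2a lay within 0.12 of 0 in both sexes.

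With epigallocatechin gallate, likewise, 0% of 9848 genes passed in the same fit, which has the same limit. At an unadjusted p under 0.05 there were 102, and the lowest adjusted p was 0.222 by limma. In males 2 members were at least 2-fold higher than on HFD, Npc2e (19 to 41 FPKM) and Npc1b (2 to 5 FPKM). Of all genes 3.16% were at least 2-fold different either way in males, 176 of 9848 higher and 135 lower. In females 0 members were, against 4.18% of all genes. In females members differed by -0.40 (Npc2e, 318 to 240 FPKM) to 0.11 (Npc2d, 48 to 52). The limma values over both sexes were 0.33 (SE 0.44) for Npc2e and 0.39 (SE 0.50) for Npc1b. Npc2g lay at 0.04 in males and 0.05 in females. Both compound comparisons and HFD against ND share the HFD libraries, and because doses are not given no comparison is made between the compounds.

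Across the 8 libraries, centred within each sex, Npc2b, Npc2f, Npc2g and Npc2h ran together with Pearson r of 0.94 to 0.97 between pairs, and Npc2a ran against them at -0.80 to -0.90. Npc1a ran with the same 4 at 0.92 to 0.97. These values are a description over 8 libraries that share the ND to high-fat step in females. Npc2e ran with these 5 at 0.33 to 0.48, and its highest value was with Npc1b (0.86). For the 8 members with a mean of at least 10 FPKM in each sex, the most similar genes were sought among 5472 protein-coding genes at that level by the same measure.

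The genes most like Npc2g were inaD (r = 1.00), which scaffolds the phototransduction complex, trpl (0.996), a cation channel of photoreceptors, and EbpIII (0.995). Male libraries held 47, 51, 58 and 54 FPKM of inaD, and female libraries 11, 31, 28 and 33. The genes most like Npc2h were Gad1 (0.998), which makes the transmitter GABA, jdp (0.995) and Syt4 (0.994), a synaptotagmin. Those most like Npc2f were CG31269 (0.999), CG43066 and hig (both 0.996). For Npc2b they were ITP (0.989), an ion transport peptide, CG32521 (0.983) and Pino (0.982), and for Npc1a CG15673 (0.985), CG4577 (0.977) and ITP (0.976). In all of these the female ND library was the lowest of the 4 female ones, which follows from picking them by likeness over the same libraries.

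Npc2a had another set of companions. They were crok (0.993), the proteasome subunit gene Rpt5 (0.992) and Sbp2 (0.990), all highest in the ND females, as with Rpt5 at 145 FPKM against 113 to 114. Npc2e was most like CG13323 (0.978), Chd64 (0.955) and CG15043 (0.924). CG15043 had male levels of 152, 76, 114 and 230 FPKM and female levels of 204, 373, 256 and 267, with the same lowest male library (HFD) and highest female library (HFD) as Npc2e. Npc2d was most like CheA87a (0.936), pix (0.918) and Sec71 (0.902). Here too, shared highest and lowest libraries follow from the choice by likeness.

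Other genes of sterol uptake and transport showed no common direction. Of 24 listed genes 23 were tested, and in females on the high-fat diets 5 rose and 7 fell (22.6% and 34.2% of all genes), with a list median of -0.04 against -0.14 for all genes. In males 0 passed, against 5.65% of all genes that rose and 2.62% that fell, with a median of -0.13 against 0.03. LpR1, a lipophorin receptor that takes up lipid from hemolymph, was at 19 FPKM on ND and 31 to 32 on the high-fat diets in females (0.71, adjusted p = 0.00089 by limma). SREBP, a regulator of lipid synthesis, was at 59 and then 71 to 73 (0.28, adjusted p = 0.0186), and the CD36-like genes santa-maria (0.74), emp (0.60) and Snmp1 (0.82) also rose. Hr96, a nuclear receptor that controls the response to dietary sterol in flies, was at 29 and then 22 to 23 FPKM (-0.36, adjusted p = 0.00603).

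The lipase gene mag (magro), a target of Hr96 in the gut, fell from 77 FPKM to 22 to 36 in females (-1.33, adjusted p = 0.0292 by limma), and in males it was at 137 on ND and 53 to 82 (-1.06, adjusted p = 0.131). Mtp, which loads lipid onto lipoproteins, fell in females from 21 to 13 to 14 (-0.62, adjusted p = 0.00754), and S1P (-0.69), crq (-0.36), Start1 (-0.75) and CG34394 (-0.32) fell too. Apolpp, the lipophorin precursor that carries sterols in hemolymph, did not pass in either sex, at 211 FPKM on ND and 101 to 131 on the high-fat diets in males (-0.81, adjusted p = 0.0771) and 122 and 91 to 118 in females. LpR2 was at 78 and then 44 to 55 in males (-0.61, adjusted p = 0.0915) and at 68 and 62 to 76 in females. The sterol acyltransferase-like gene CG8112 (9 and then 5 to 7 FPKM in males, 18 and then 14 to 16 in females), Lip4 and CG3860 also did not pass. Rescaled to the muscle genes, 0 of these 23 rose and 21 fell in females, against 5.65% and 75.7% of all genes. With median-centred libraries 9 rose and 3 fell, against 30.0% and 15.1% of all genes, and the Hr96, S1P, crq and CG34394 calls were lost. SREBP did not pass at a common library sum (adjusted p = 0.0591).

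Of 27 genes of ecdysteroid synthesis and response, 13 were tested. The synthesis genes nvd, spok and dib were listed at 0 in every library, and sro, spo, phm and sad were listed at 0 in males and at 0 to 4 FPKM in females. In females 2 of 13 rose and 4 fell, near the 22.6% and 34.2% of all genes, with a median of -0.28 against -0.14. Kr-h1, a juvenile hormone response gene, rose from 13 FPKM to 29 to 30 (1.12, adjusted p = 0.00144 by limma), and so did Oatp74D, the ecdysone importer, from 3 to 5 to 6 (0.66, adjusted p = 0.0121). The falling genes were the receptor partner usp (60 to 44 to 47, -0.39), br (2 to 0, -1.58), ftz-f1 (37 to 20 to 28, -0.68) and Hr39 (16 to 8 to 10, -0.72). In males 0 rose and 2 fell, against 5.65% and 2.62% of all genes, with a median of -0.31. Those that fell were Eip75B (26 to 18 to 19 FPKM, -0.48, adjusted p = 0.018 by limma) and Oatp74D (11 to 6 to 7, -0.65, adjusted p = 0.0498). At a common library sum 0 fell in males, against 0.701% of all genes. EcR did not pass in either sex. With median-centred libraries 2 rose and 2 fell in females, against 30.0% and 15.1% of all genes, and usp (adjusted p = 0.105) and ftz-f1 (adjusted p = 0.0972) did not pass. On the muscle scale 0 of the 13 rose and 10 fell, against 5.65% and 75.7%.

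Among lysosomal genes, 35 of 37 were tested, with 9 (25.7%) that rose and 5 (14.3%) that fell in females, against 22.6% and 34.2% of all genes. In males 0 rose and 0 fell, against 5.65% and 2.62% of all genes. The median was 0.12 in females, against -0.14 for all genes, and -0.08 in males, against 0.03. The genes that rose were the protease cathD (0.37), the mannosidases LManI (0.84) and LManII (0.69), Gba1b (0.86), Ppt2 (0.67), Cln7 (0.85) and 3 proton pump genes, Vha26 (0.24), VhaSFD (0.35) and VhaAC45 (0.36). LManII was at 91 FPKM on ND and 133 to 163 on the high-fat diets in females, and at 105 and then 69 to 81 in males. The genes that fell were 26-29-p (296 to 164 to 192 FPKM, -0.76), LManIII (-2.0), Hexo2 (-0.34), Mitf (-0.68), which regulates lysosomal genes, and Vps16A (-0.35). Gba1a, LManV, LManVI and Vha36-1 did not pass. Of the same 35 genes, 0 rose and 32 fell in females on the muscle scale, against 5.65% and 75.7% of all genes. With median-centred libraries 21 rose and 3 fell, against 30.0% and 15.1%, and Hexo2 and Vps16A no longer passed.

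Peptidoglycan recognition and Imd signalling, the antibacterial pathway that Npc2a and Npc2e are annotated to, had 34 of 36 genes tested. In females 11 rose and 3 fell, against 22.6% and 34.2% of all genes (median 0.43 against -0.14). In males 0 rose and 1 fell, against 5.65% and 2.62% of all genes, with a median of -0.31. The gene that fell in males was PGRP-SC2 (189 to 104 to 132 FPKM, -0.69, adjusted p = 0.0493 by limma), and at a common library sum 0 fell. The receptor PGRP-LC was at 8 FPKM on ND and 26 to 33 on the high-fat diets in females (1.71, adjusted p = 0.00239). The Imd inhibitor pirk was at 16 and then 68 to 77 FPKM (2.08, adjusted p = 0.000681), and the factor Rel at 43 and then 62 to 74 (0.65, adjusted p = 0.0168). PGRP-LA (0.97), PGRP-LB (0.73), GNBP1 (0.42), GNBP2 (1.10), GNBP3 (0.45) and AttD (2.91) rose as well.

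The near-identical PGRP-SC1a (2.27) and PGRP-SC1b (2.12) also rose, though reads cannot be assigned to one or the other with certainty. The kinase genes ird5 (-0.34) and Tak1 (-0.13) and the adaptor Tab2 (-0.40) fell, but with median-centred libraries ird5 (-0.12) and Tab2 (-0.18) did not pass and Tak1 was at 0.10, and Tak1 did not pass at a common library sum either. With median-centred libraries 16 of the 34 rose and 0 fell, against 30.0% and 15.1% of all genes. The antibacterial peptide genes Dro, Def and AttA and the amidase gene PGRP-SB1 did not pass, and Dro ran from 17 to 223 FPKM among the males. On the muscle scale 5 of the 34 rose and 13 fell in females, against 5.65% and 75.7% of all genes: PGRP-LC at 0.64, PGRP-SC1a at 1.42, PGRP-SC1b at 1.05, pirk at 0.96 and AttD at 2.25 stayed above 0 and passed.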

How the data were processed

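Per the labels' protocols, Isogen was used to extract RNA and a SureSelect strand-specific kit to build libraries. The authors deposited FPKM per transcript, rounded to whole numbers, which were handled as a score, since the deposited values keep no read counts. Per the submitters' processing notes the tools were Cuffdiff 2.2.1, TopHat2 2.1.1 and CASAVA 1.8.2. Their parameters, the genome build, the strand setting and the scaling between libraries are not given in the sources used here. The deposited gene positions equalled those of BDGP6.54 for 17286 of 17431 genes (99.2%).

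FPKM of 34475 transcripts were summed per FlyBase gene to 17655 genes. limma 3.58.1 in R 4.3.3 was fitted with a trended prior to log2(FPKM + 1) of the 9848 genes with at least 1 FPKM in 1 or more libraries of each sex. The additive fit of sex and diet had 3 residual and 2.27 prior degrees of freedom, and the fit of sex by high-fat feeding 4 and 0.954. P-values were adjusted by Benjamini-Hochberg over all 9848 genes at 0.05, and the fits were tested on simulated data. Depth is unknown, so no counting interval is given. Samples were grouped by the labelled diet and sex. The alternatives were other scalings, pseudocounts of 5 and 0.5, other filters, no trend, the most abundant transcript per gene and leaving out each library.

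The members, lists and tests were chosen with earlier results of these data known. From each list the text names the genes past the threshold in a diet contrast within a sex, up to 4 others with a large mean change, and Hr96, SREBP, mag, Apolpp, Mtp, LpR1 and LpR2. For the sex comparison it names members alone.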

Additional observations from a re-analysis of the deposited data

Results flagged for a closer look

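The response to the high-fat diets differed between females and males for 7 members, by the interaction in the limma fit with adjustment over all 9848 genes. On the log2(FPKM + 1) scale, the female minus male difference in response was 0.31 for Npc1a, -0.74 for Npc2a, 0.60 for Npc2b, -2.22 for Npc2c, 0.97 for Npc2f, 0.88 for Npc2g and 0.98 for Npc2h. The female and male responses themselves were 0.30 and -0.02 for Npc1a, -0.52 and 0.22 for Npc2a, 0.57 and -0.03 for Npc2b, and -0.75 and 1.46 for Npc2c. They were 1.00 and 0.03 for Npc2f, 1.05 and 0.16 for Npc2g, and 1.00 and 0.01 for Npc2h. Each response rests on a single ND library per sex. On the muscle scale none of the 5 positive values passed: Npc1a was at -0.54, Npc2b at -0.27, Npc2f at 0.09, Npc2g at 0.00 and Npc2h at 0.13, while Npc2a (-1.63) and Npc2c (-3.02) passed. The Npc1a and Npc2b calls were also lost with the most abundant transcript per gene, that of Npc1a at a common library sum, and that of Npc2c with a pseudocount of 5 or no filter on low values. Leaving out single high-fat libraries ended the Npc1a and Npc2c calls at adjusted p-values of up to 0.0642 and 0.0873. The summed muscle genes were higher than ND by 1.05 to 1.22 in the female high-fat libraries and by 0.19 to 0.40 in the male ones, and their part in these values was not tested.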

How the results depend on the processing

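No paired analysis was possible because each diet and sex has 1 library, so that no groups share 2 replicate numbers to block on; the sex comparison has diet as a term and so sets the sexes side by side within each diet. The calls of Npc2a and Npc2b in females kept their side of the threshold under all alternatives run, although Npc2b turned negative on the muscle scale. Npc2f, Npc2g and Npc2h kept theirs under all but that scale. With all 8 libraries kept, numbers of called genes moved by over 1.5 times in these cases. Female minus male rose from 6594 of 9848 genes tested to 9932 of 13710 with no filter on low values. High-fat minus ND in males fell from 814 to 112 at a common library sum, 281 with median-centred libraries and 242 on the muscle scale. On that scale the mean of the sexes went from 3436 to 7892 and the interaction from 4208 to 6750.

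Median centring changed the split of higher and lower calls in females from 2229 and 3371 to 2955 and 1484, and between the sexes from 3902 and 2692 to 2961 and 3627. In males the split of 556 and 258 became 43 and 69 at a common sum and 162 and 119 with median centring. It shifted the median of all genes by 0.23 in females and -0.27 between the sexes.

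Reversed signs on the muscle scale, chosen after seeing the data, were 0.01 for Npc2g in female minus male. In females they were -0.82 for Npc1a, -0.58 for Npc2b, -1.0 for Npc2d, -0.15 for Npc2f, -0.11 for Npc2g and -0.14 for Npc2h. In the mean of the sexes they were -0.55, -0.44, -0.50, -0.20, -0.11 and -0.20 for the same genes, and in the interaction -0.54 for Npc1a and -0.27 for Npc2b. With the most abundant transcript Npc1a in females was at -0.04. The muscle genes used for that scale were themselves higher on the high-fat diets in females, by a median of 1.15.

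Leaving out 1 library at a time gave 0 to 3839 genes for HFD minus ND, 0 for HFD+QG and 0 for HFD+EGCG minus HFD, 4721 to 6986 for the sexes, 445 to 816 in males, 4687 to 5600 in females, 2526 to 3005 for the mean of the sexes and 3287 to 3878 for the interaction. Without an ND library the values of that sex, the mean and the interaction could not be fitted. HFD minus ND within a sex gave values with no test, and at a mean of 5 FPKM Npc1b and Npc2c were not tested. Rounding to whole FPKM limits what can be said of both genes.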
